A study of Mus musculus with 2 samples.

Results

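The natural killer (NK) cells of Bm12 heart allografts were the 931 of 4441 sequenced cells (21.0% of all cells) that carried the annotation NK cells in the deposited cell table. The cells of 6 hearts were marked with 1 hashtag antibody per heart and pooled in 1 droplet library on postoperative day (POD) 14. IL-33+ grafts came from Bm12 donors with intact il33, B6-background mice whose MHC class II molecule I-A carries the bm12 mutation. IL-33- grafts came from Bm12 donors that were il33-/-. All grafts of both groups carried the bm12 mutation and all recipients were wild-type C57BL/6 (B6) mice, which had intact il33. The annotation did not separate recipient from donor cells. Hearts 1, 2 and 3 were labelled IL-33+ and gave 140, 53 and 475 NK cells. Hearts 4, 5 and 6 were labelled IL-33- and gave 105, 33 and 125 NK cells. In all comparisons the heart was the replicate (n = 3 hearts per group).

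NK cells are innate lymphocytes that kill stressed or foreign cells with perforin and granzymes and secrete interferon-gamma and chemokines. They weigh activating against inhibitory receptors, many of them from the Klr and Ly49 (Klra) families. In mice they mature from cells with the costimulatory receptor Cd27 towards cells with the integrin Itgam (CD11b). A related lineage, the tissue type 1 innate lymphoid cells (ILC1), is known for Itga1 (CD49a), Cxcr6 and low Eomes. IL-33 is an alarmin that is released by damaged tissue and read through ST2, the product of Il1rl1.

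The annotation was checked with 6 marker genes: the activating receptors Ncr1 and Klrb1c (NK1.1), the lectin-like receptor Klre1, the T-box factor Eomes, granzyme A (Gzma) and perforin (Prf1). All 6 had their highest mean level in NK cells among the 14 annotated types, and NKT cells were next for each. Levels are means over cells of CPM, the counts of a gene's unique molecular identifiers (UMIs) scaled to the same total in every cell and not divided by gene length. The mean was 49.5 in NK and 31.3 in NKT cells for Ncr1, 233 and 129 for Klrb1c, 336 and 304 for Klre1, 1087 and 641 for Eomes, 6861 and 4518 for Gzma, and 911 and 474 for Prf1. At least 2 of the 6 markers had a UMI in 94.1% of NK cells, in 91.4% of NKT cells and in 2.80% of B cells. Median depths were 2712 UMIs in NK, 5741 UMIs in NKT and 2292 UMIs in B cells. At least 3 markers had a UMI in 77.4% of NK and 79.3% of NKT cells, and at least 4 in 48.5% of NK and 55.0% of NKT cells. These counts thus do not set NK cells apart from the deeper NKT cells. Gzma had a UMI in 94.5% of NK cells and in 13.3% of B cells, which should lack it. The types were drawn from these same expression values, so the levels are a description and were not tested.

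**Figure D1:**
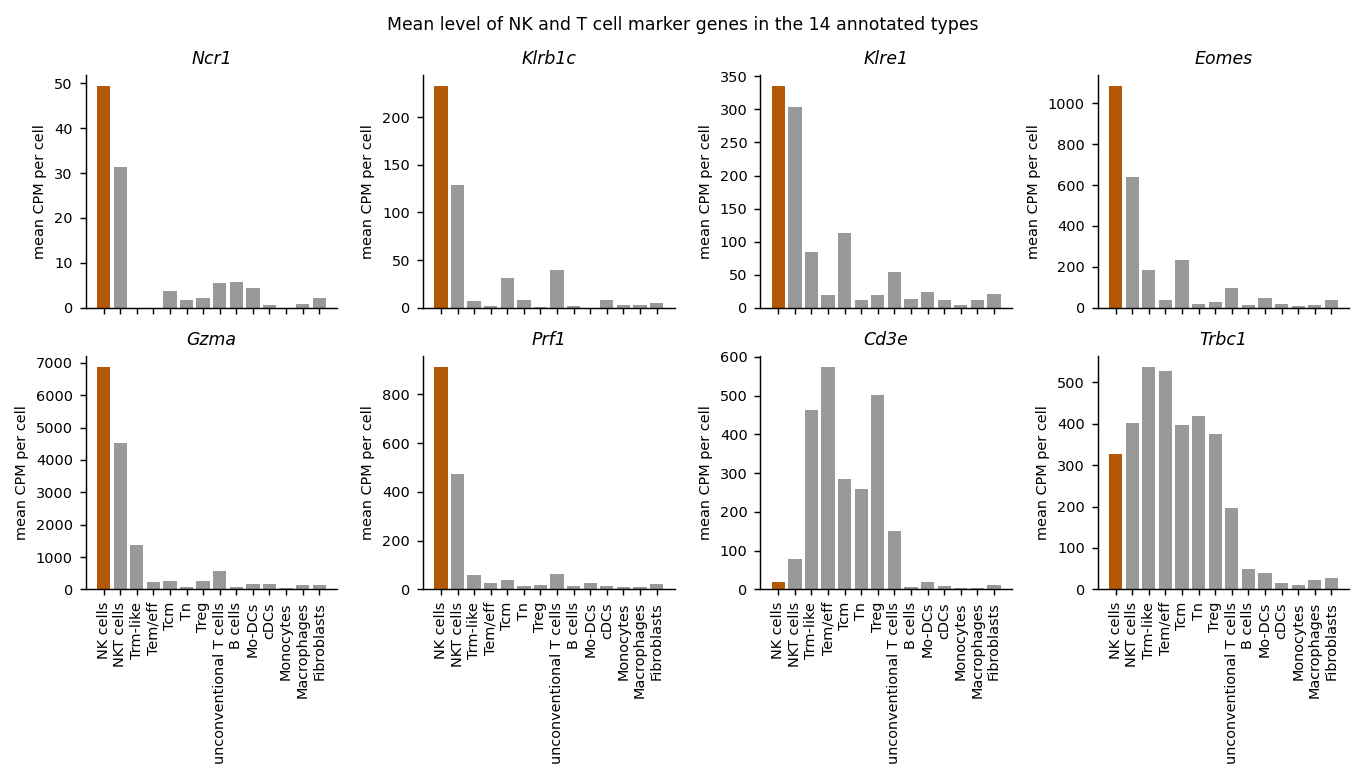
Bars give the mean level in CPM per cell (linear axis from 0) of 6 NK cell marker genes and of the T cell genes Cd3e and Trbc1 in the 14 annotated types, with NK cells in orange and the other types in grey. The NK markers are highest in NK cells and next highest in NKT cells, whereas NK cells hold 19.5 CPM of Cd3e and 328 CPM of Trbc1.

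T cell receptor genes gave the annotation its least clear border. Cd3e, a subunit of the CD3 complex that T cells need for their receptor, had a UMI in 4.30% of NK cells and in 1.75% of B cells. Of the 12 T cell markers, 2 UMIs or more were found in 408 of the 931 NK cells. A UMI of Trbc1 or Trbc2, the constant segments of the receptor's beta chain and both among the 12, was found in 554 NK cells. The mean level in NK cells was 328 CPM for Trbc1, 39.3 CPM for Trac and 19.5 CPM for Cd3e. In effector memory and effector T cells it was 528, 538 and 573 CPM. A Trbc1 or Trbc2 UMI thus does not by itself set a T cell apart from an annotated NK cell. A UMI of Cd3d, Cd3e, Cd3g or Trac was found in 158 NK cells, 18.6, 17 and 16.8% in IL-33+ hearts and 20, 21.2 and 12% in IL-33- hearts. In NKT cells the same share was 32, 52.9 and 53% in IL-33+ hearts and 47.8, 46.4 and 42.2% in IL-33- hearts. Both shares were taken before thinning, and NKT cells were deeper, with a median of 5741 UMIs against 2712 UMIs in NK cells. Greater depth raises such a share, and the types were not compared at equal depth. The share of NK cells with a UMI of Cd3d, Cd3e, Cd3g or Trac overlapped between the graft groups. Counts of the whole list of 12 leaned to IL-33- hearts and overlapped. After each NK cell was thinned to 1500 UMIs, 2 UMIs or more of the list were found in 24.3, 30.2 and 19.6% in IL-33+ hearts and 33.3, 30.3 and 24% in IL-33- hearts (exact permutation p = 0.4), and before thinning in 47.9, 45.3 and 38.7% in IL-33+ hearts and 55.2, 57.6 and 44.8% in IL-33- hearts. The summed level of the 12 was 633 ± 57.3 against 729.7 ± 149 CPM (exact permutation p = 0.4).

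Promoter sequences of 4 markers are shown. They were chosen because Prf1, Gzma and Klrb1c leaned to IL-33+ hearts below, where the main test called no gene, and Ncr1 defines the lineage. A link of promoter sequence to the graft groups was not tested. Each is the RefSeq window (GRCm38.p6) from 250 bases before to 50 bases after the annotated start, 5′ to 3′ on the strand of the gene, for Ncr1 at chr7:4337465-4337764 (plus strand, the first of 2 annotated starts), Klrb1c at chr6:128788592-128788891 (minus strand), Gzma at chr13:113100932-113101231 (minus strand) and Prf1 at chr10:61297586-61297885 (plus strand). Capitals mark the letters TGTGGT, on either strand, the core that Runx factors recognise; Runx3 is a lineage factor of NK cells.
Ncr1: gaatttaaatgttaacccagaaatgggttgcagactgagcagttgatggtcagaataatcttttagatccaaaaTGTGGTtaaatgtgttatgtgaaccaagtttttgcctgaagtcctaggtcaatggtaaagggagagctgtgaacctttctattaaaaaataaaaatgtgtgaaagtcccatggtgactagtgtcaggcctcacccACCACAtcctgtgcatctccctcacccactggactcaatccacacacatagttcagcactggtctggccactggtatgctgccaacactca
Klrb1c: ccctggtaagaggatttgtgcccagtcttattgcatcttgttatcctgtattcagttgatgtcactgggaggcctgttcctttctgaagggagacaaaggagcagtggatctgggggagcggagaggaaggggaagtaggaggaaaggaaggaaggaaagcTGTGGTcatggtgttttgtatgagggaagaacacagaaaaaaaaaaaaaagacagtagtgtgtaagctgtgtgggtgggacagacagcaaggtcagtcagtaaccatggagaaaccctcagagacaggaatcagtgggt
Gzma: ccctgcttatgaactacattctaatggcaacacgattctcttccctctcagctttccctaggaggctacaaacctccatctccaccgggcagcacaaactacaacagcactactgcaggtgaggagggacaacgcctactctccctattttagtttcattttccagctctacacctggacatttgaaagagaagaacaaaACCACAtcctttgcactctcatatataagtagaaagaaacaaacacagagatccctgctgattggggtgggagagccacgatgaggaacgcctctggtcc
Prf1: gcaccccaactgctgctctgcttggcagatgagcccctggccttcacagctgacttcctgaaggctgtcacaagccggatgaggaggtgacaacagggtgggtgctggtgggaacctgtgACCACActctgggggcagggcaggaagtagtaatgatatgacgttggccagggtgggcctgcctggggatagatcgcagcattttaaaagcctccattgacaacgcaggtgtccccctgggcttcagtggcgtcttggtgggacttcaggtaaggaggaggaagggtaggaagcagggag

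The Runx letters were in a window of 5 of the 6 markers (Ncr1 with 2 matches, Klrb1c, Klre1, Gzma and Prf1) and not in that of Eomes, against 18.9% of the 27025 genes with a window. Klre1 had a match in the window of the first of its 2 annotated starts and none in that of the second. The T-box letters GTGTGA, searched on both strands, were in the windows of Ncr1 and Klre1, against 16.4% of genes. Both sets of letters were chosen after the markers were known, and a match is a description of the sequence, not a bound site. Runx3 itself stood at 994, 1102 and 1015 CPM in IL-33+ hearts and 1076, 1205 and 1112 CPM in IL-33- hearts, with no separation of the groups.

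NK cells made up 16.2, 23 and 28.5% of the cells of IL-33+ hearts and 12.6, 11.6 and 22.4% of those of IL-33- hearts. The means were 22.6 ± 6.19 against 15.5 ± 5.95% (SD), and the groups overlapped (two-sided exact permutation test over hearts, p = 0.2, where 0.1 is the smallest p that 3 against 3 allows). The 95% Wilson interval ran from 8.39 to 15.9% in heart 5, the heart with the lowest share, and from 26.4 to 30.7% in heart 3, the heart with the highest, and such intervals cover counting error only. Among NK, NKT, T and B cells alone, the shares were 29, 26.6 and 42.1% in IL-33+ hearts and 16.8, 14 and 28.6% in IL-33- hearts. On that scale heart 6 lay above heart 2, whereas among all cells it lay above heart 1 and below heart 2 (exact permutation p = 0.2). Fewer NK cells and more cells of other types cannot be told apart in a share.

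The captured RNA per NK cell differed more clearly than the share. The median was 2737, 2633 and 2548 UMIs per NK cell in IL-33+ hearts and 3057, 3296 and 2936 UMIs in IL-33- hearts, so every IL-33- heart lay above every IL-33+ heart (exact permutation p = 0.1, the smallest possible). The median number of genes per NK cell followed, at 1413, 1374 and 1351 against 1502, 1585 and 1491 (exact permutation p = 0.1). The mitochondrial share of UMIs was 5.06 ± 0.290 against 5.14 ± 0.203% (exact permutation p = 0.8) and the ribosomal protein share 12.5 ± 0.316 against 13 ± 0.301% (p = 0.2). Every NK cell was therefore thinned to 1500 UMIs before cells holding a gene's UMI were counted. Total UMIs over NK cells were 393224, 143879 and 1270906 in hearts 1 to 3 and 318870, 107493 and 372670 in hearts 4 to 6, so values of hearts 2 and 5 are the least precise.

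**Figure D2:**
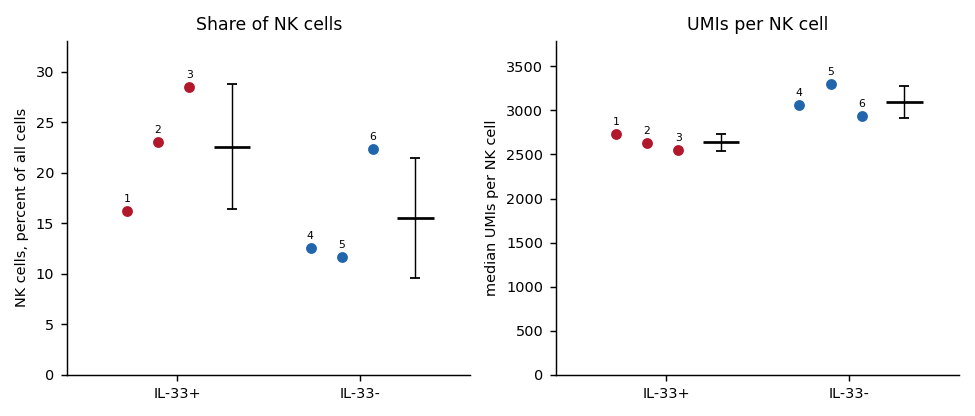
The left panel plots NK cells as a percentage of all cells and the right panel the median UMIs per NK cell, 1 point per heart (numbered 1 to 6; IL-33+ red, IL-33- blue), with the group mean and SD as a bar and whiskers. The shares overlap through heart 6 at 22.4%, whereas the medians of 2548 to 2737 UMIs in IL-33+ hearts lie below those of 2936 to 3296 UMIs in IL-33- hearts.

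RNA of other cells was present in the NK cells of all hearts. Summed red cell markers stood at 2362, 214 and 2238 CPM in IL-33+ hearts and 1294, 93.7 and 1994 CPM in IL-33- hearts, low in hearts 2 and 5. Summed neutrophil markers were 27.6, 33.5 and 44.3 CPM against 237, 174 and 33.4 CPM, high in hearts 4 and 5. Cardiomyocyte markers summed to at most 14.3 CPM, and fibroblast markers lay between 592 and 691 CPM in every heart. Summed levels of B cell, macrophage and monocyte, endothelial and ILC2 markers overlapped between the groups, at 103 to 305, 131 to 413, 75.2 to 186 and 351 to 729.5 CPM. The ILC2 list includes Gata3 and Klrg1, which are also on NK gene lists below, so its sum does not by itself show RNA of other cells. The part of such RNA in the results below was not tested. The RNA of Il33 did not check the graft labels, since NK cells of all hearts held 4 UMIs of it and fibroblasts of hearts labelled IL-33- still held 17 UMIs against 128, of which 121 in heart 3. The fibroblasts numbered 65 in IL-33- and 310 in IL-33+ hearts, 270 of them in heart 3, so that a fibroblast held on average 0.262 UMIs in IL-33- and 0.413 UMIs in IL-33+ hearts. Il1rl1 had 9 UMIs over all 931 NK cells, 5 in IL-33+ and 4 in IL-33- hearts, against a mean of 477 CPM in regulatory T cells (Treg), the type with the most.

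Gene levels were compared as the mean CPM over the NK cells of each heart, on the log2(CPM + 10) scale, with limma across 9565 genes. No gene was called at an adjusted p of 0.05 or less (0% of genes), with the smallest adjusted p at 0.12. At an unadjusted p of 0.05 or less there were 557 genes (5.82%), of which 312 (3.26%) were higher and 245 (2.56%) lower in IL-33+ hearts, and the hearts of the groups did not overlap for 1079 genes (11.3%), 558 higher (5.83%) and 521 lower (5.45%). These shares are the background for the counts in gene lists below. limma-voom, which weights the recovered UMIs of each heart by their precision, called 22 genes (0.23%), 9 higher (0.0941%) and 13 lower (0.136%) in IL-33+ hearts. All 22 had the same direction in limma, 21 of them with an unadjusted p of 0.05 or less, and 15 did not overlap between groups. Both tests used the same hearts and the same UMIs, so these counts are not separate support for the calls. The calls depended on single hearts. limma-voom called 0 genes without heart 3, the heart with the most NK cells (513 at an unadjusted p of 0.05 or less), 2 without heart 4, 7 without heart 5, 13 without heart 1 and 45 without heart 6. limma called 2 genes without heart 3, 1 without heart 4 and 9 without heart 6. Of 78 named genes with an unadjusted p of 0.05 or less, 38 had a limma fold change that moved by over 1.5 times when 1 heart was left out, 20 of them without heart 5 and 12 without heart 2, and none changed sign. Among genes described below, that of Eomes was 0.31, of Ccl5 0.26, of Rora -0.53, of Klre1 0.21 and of Gzmb 0.18 without heart 5, of AW112010 0.17 without heart 3, and of Cxcr6 -0.52 without heart 4 and -1.49 without heart 2. Among NK cells without a UMI of Cd3d, Cd3e, Cd3g or Trac, limma-voom called 7 genes and limma 0 (510 at an unadjusted p of 0.05 or less). Fold changes below are IL-33+ over IL-33- with the limma standard error, on the log2(CPM + 10) scale, which understates the change of genes with few counts. In GRCm38.p6 the protein-coding genes Prf1, Gzma, Klrb1c, Cd27 and Itga1, which recur below, lie at chr10:61297833-61304680, chr13:113093825-113100981, chr6:128778485-128789215, chr6:125232622-125237010 and chr13:114953096-115101964.

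Among the genes higher in IL-33+ hearts, the killing genes Prf1 and Gzma had the smallest limma-voom p. Prf1, the pore-forming protein of cytotoxic granules, lay at 832, 813 and 1112 CPM in IL-33+ hearts and 659.9, 533 and 585 CPM in IL-33- hearts, and every IL-33+ heart was above every IL-33- heart. Its log2 fold change was 0.62 ± 0.13 (limma adjusted p = 0.21, limma-voom adjusted p = 0.0079). Gzma, a granule protease, stood at 7855, 5131 and 7575 CPM in IL-33+ hearts and 4451, 4290.4 and 6470.2 CPM in IL-33- hearts, with heart 6 above heart 2. Its log2 fold change was 0.43 ± 0.13 (limma adjusted p = 0.46, limma-voom adjusted p = 0.0079). In Trm-like T cells the same comparison of Gzma gave 2.05 ± 0.27, the 1 gene that limma called there (adjusted p = 3.6e-04, 0.0128% of 7819 genes, with 395 or 5.05% at an unadjusted p of 0.05 or less). The difference between NK and Trm-like cells in that fold change was -1.62 ± 0.54 (limma unadjusted p = 0.016, adjusted p = 0.94).

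Of the 20 genes of cytotoxic granules and death ligands, 5 were higher (Gzma, Gzmb, Prf1, Nkg7 and Cma1) and 2 lower (Gzmc and Serpinb9) in IL-33+ hearts at an unadjusted p of 0.05 or less, and limma called none. The list's median log2 fold change was 0.12, beside 0.011 over all genes. Granzyme B (Gzmb) lay at 973, 559 and 1294 CPM in IL-33+ hearts and 906, 436 and 682 CPM in IL-33- hearts, with heart 2 below hearts 4 and 6 (0.46 ± 0.22). Nkg7, a granule membrane protein, had 0.27 ± 0.12 and the mast cell chymase Cma1 0.55 ± 0.24. Serpinb9, which guards the killer against its own granzyme B, was at 493, 607 and 692 CPM in IL-33+ hearts and 741, 915 and 664 CPM in IL-33- hearts (-0.37 ± 0.14). Gzmc ranged from 0 to 62.2 CPM, with 22 UMIs in heart 4 and none in hearts 2 and 6, and shares sequence with neighbouring granzyme genes. The granule proteoglycan serglycin (Srgn) stood at 1541 to 2106 CPM in IL-33+ and 1660.4 to 1841 CPM in IL-33- hearts (-0.03 ± 0.11).

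Among activating receptors, Klrb1c (NK1.1) showed the same separation as Prf1. It stood at 243, 219 and 283 CPM in IL-33+ hearts and 114, 139 and 163 CPM in IL-33- hearts, a log2 fold change of 0.80 ± 0.19 (limma adjusted p = 0.25, limma-voom adjusted p = 0.036). All IL-33+ hearts were above all IL-33- hearts. Ncr1, another activating receptor, did not separate: 29.9, 45 and 57.1 CPM in IL-33+ hearts and 46.4, 38.4 and 49.8 CPM in IL-33- hearts (-0.05 ± 0.32). Of 19 activating receptors and adaptors tested, 2 were higher at an unadjusted p of 0.05 or less, Klrb1c and the signalling adaptor Sh2d1a (0.97 ± 0.44), and none lower. The adaptors Fcer1g (0.19) and Tyrobp (0.13), the integrin Itgal (0.12) and the Ly49H receptor Klra8 (0.29) had the highest UMI levels of the list and overlapped between groups.

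Of 19 inhibitory receptors tested, 3 were higher (Klre1, Klra3 and Klra4) and 2 lower (Klra5 and Lair1) at an unadjusted p of 0.05 or less. Klre1 stood at 308, 269 and 392 CPM in IL-33+ hearts and 301, 179 and 252 CPM in IL-33- hearts (0.40 ± 0.19), and heart 2 lay below heart 4. Klra4 (Ly49D, an activating member of the Ly49 family by function) was at 316, 517 and 462 CPM in IL-33+ hearts and 248, 368 and 355 CPM in IL-33- hearts (0.40 ± 0.18), and Klra3 had 1.01 ± 0.36. Klra5 had -1.46 ± 0.46 and the collagen receptor Lair1 -1.17 ± 0.42, from at most 75.9 and 38.4 CPM in any heart. Klrc1 (NKG2A, -0.27) and Klrb1b (0.16) were the others of high UMI level. Ly49 genes are near copies of each other, and how reads were shared among them is uncertain.

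Most genes of late NK maturation had a higher level and most of early maturation a lower level in IL-33+ hearts, none of them past limma's adjusted test. Of the 15 late genes, 13 had a higher level and the median log2 fold change was 0.42. At an unadjusted p of 0.05 or less, 6 were higher (Itgam, Cma1, Cx3cr1, Irf8, Gzma and Ccl5) and 1 lower (Ly6c2). Of the 14 early genes, 9 had a lower level and the median was -0.40. At that p, 5 were lower (Cd27, Ltb, Emb, Xcl1 and Thy1) and 1 higher. Over all 9565 genes tested, 4892 had a higher and 4673 a lower level, and at that p 3.26% were higher and 2.56% lower. The lists were chosen with earlier results of these cells known. They share members, which are counted in each list. Gzma and Cma1 are also on the cytotoxic list and Irf8 is also on that of transcription factors. Ccl5, Xcl1 and Ltb are also secreted factors, and Itgam and Cx3cr1 are also trafficking receptors, as are Itga1 and Cxcr6 of the residency list below. Counts of different lists are thus not separate results.

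Cx3cr1, the fractalkine receptor of mature patrolling cells, stood at 85.1, 76 and 92.1 CPM in IL-33+ hearts and 47.3, 11 and 35.8 CPM in IL-33- hearts, with no overlap (1.31 ± 0.34, limma adjusted p = 0.28). Itgam (CD11b) was at 189, 299 and 283 CPM in IL-33+ hearts and 136, 152 and 193 CPM in IL-33- hearts, with heart 1 just under heart 6 (0.64 ± 0.20). After thinning to 1500 UMIs, an Itgam UMI was found in 25, 30.2 and 33.7% of NK cells in IL-33+ hearts and 12.4, 21.2 and 21.6% in IL-33- hearts (exact permutation p = 0.1, no overlap). Over all hearts that was 27.7% of NK cells, against 3.29% of naive T cells, which should lack it. Before thinning the shares were 35.7, 45.3 and 48% in IL-33+ hearts and 21, 27.3 and 32% in IL-33- hearts.

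The chemokine Ccl5 was at 3986, 4375 and 4149 CPM in IL-33+ hearts and 3165, 2406 and 3829 CPM in IL-33- hearts, with no overlap (0.44 ± 0.11, limma adjusted p = 0.25, limma-voom adjusted p = 0.036). The transcription factor Irf8 was at 2529, 3033 and 2945 CPM in IL-33+ hearts and 2313, 1950.2 and 2647 CPM in IL-33- hearts (0.31 ± 0.10), with heart 6 above heart 1. Klrg1, a late receptor, had a UMI in 7.26 ± 2.14% of thinned IL-33+ and 6.38 ± 3.20% of thinned IL-33- cells (exact permutation p = 0.8, 0.350% of B cells). Ly6c2, a surface antigen that also rises with activation, went the other way (-0.52 ± 0.22).

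Cd27, the receptor of the early stage, was even among IL-33+ hearts. It stood at 95.7, 97.2 and 95.8 CPM in IL-33+ hearts and 194, 232 and 154 CPM in IL-33- hearts, so that every IL-33- heart was higher. The log2 fold change was -0.92 ± 0.21 (limma adjusted p = 0.25, limma-voom adjusted p = 0.037). After thinning, a Cd27 UMI was found in 12.1, 15.1 and 12.2% of NK cells in IL-33+ hearts and 22.9, 30.3 and 20.8% in IL-33- hearts (exact permutation p = 0.1, no overlap), against 0.466% of thinned macrophages. Before thinning the shares were 17.9, 28.3 and 19.2% in IL-33+ hearts and 31.4, 42.4 and 35.2% in IL-33- hearts. Median depths were 2712 UMIs in NK cells and 6606 UMIs in macrophages.

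Not all early genes leaned the same way. The transcription factors Lef1 (0.63) and Tcf7 (0.39), the IL-7 receptor Il7r (0.13) and Cd3e (0.46) had a higher level in IL-33+ hearts, each at an unadjusted p above 0.05, and for Lef1 the groups did not overlap. Other early genes code for surface or secreted proteins. Embigin (Emb), an adhesion and transporter chaperone protein, was at 274, 254 and 185 CPM in IL-33+ hearts and 393, 519 and 321 CPM in IL-33- hearts (-0.76 ± 0.18, limma-voom adjusted p = 0.027), with no overlap. Thy1 (CD90), a surface glycoprotein, was at 129, 189 and 109 CPM in IL-33+ hearts and 286, 337 and 179 CPM in IL-33- hearts (-0.85 ± 0.22, limma-voom adjusted p = 0.036), where only heart 2 exceeded heart 6. Lymphotoxin beta (Ltb) had -1.12 ± 0.35, from 16.3 to 31.4 CPM in IL-33+ and 37 to 77.4 CPM in IL-33- hearts. Summed T cell markers also leaned to IL-33- hearts. Among NK cells without a UMI of Cd3d, Cd3e, Cd3g or Trac, the fold change of Cd27 was -0.86, of Thy1 -0.96 and of Ltb -1.18.

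The chemokine Xcl1, which draws cross-presenting dendritic cells, was at 177, 258 and 349 CPM in IL-33+ hearts and 541, 553 and 267 CPM in IL-33- hearts (-0.75 ± 0.23). Hearts 4 and 5 were high and heart 3 exceeded heart 6. After thinning, an Xcl1 UMI was found in 15.7, 20.8 and 22.5% of NK cells in IL-33+ hearts and 40, 39.4 and 23.2% in IL-33- hearts (exact permutation p = 0.1, no overlap), against 2.80% of B cells. Without thinning hearts 3 and 6 lay at 31.8 and 32.0%.

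**Figure D3:**
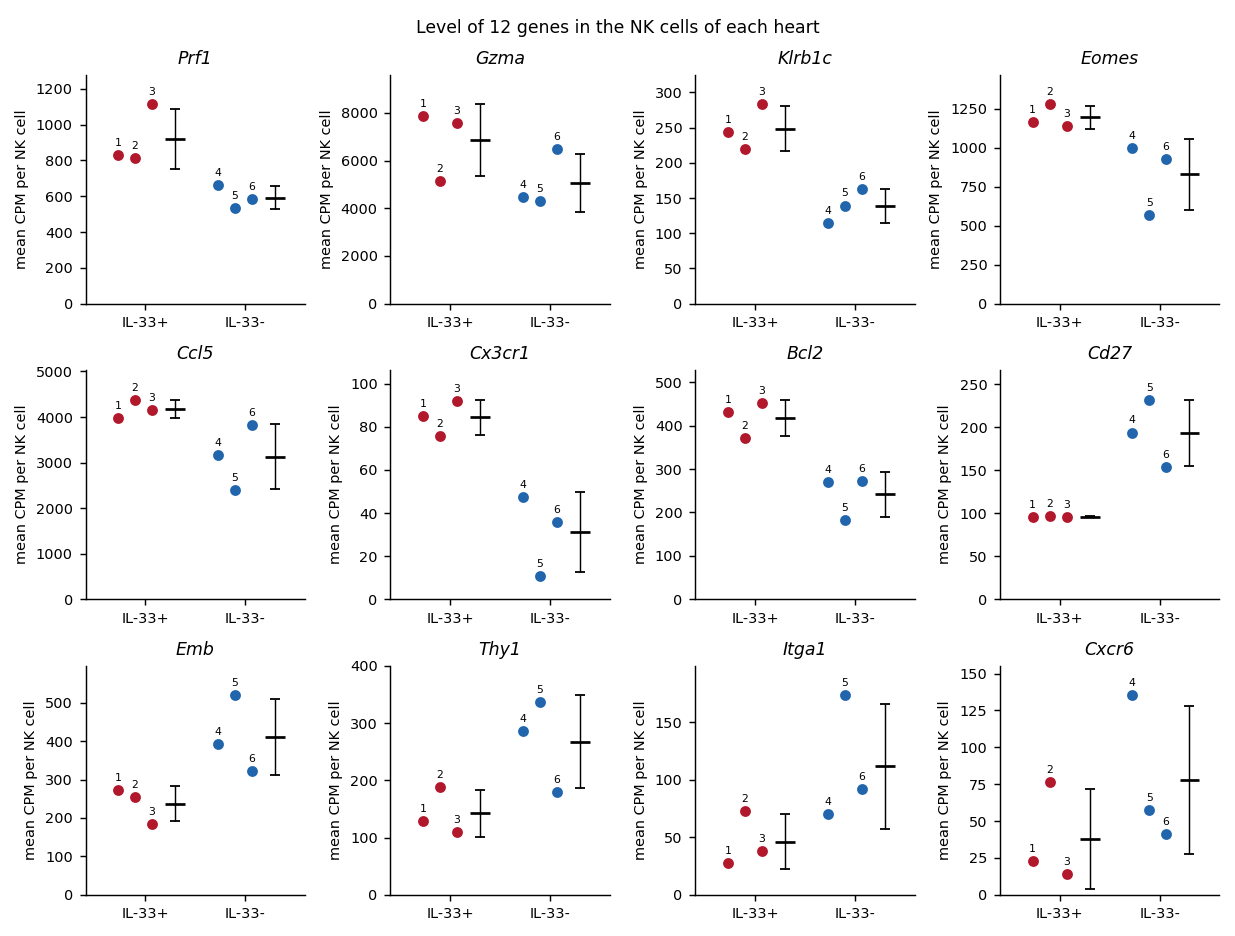
Each panel plots the mean CPM per NK cell (linear axis from 0) of 1 gene in the 6 hearts (numbered; IL-33+ red, IL-33- blue), with the group mean and SD as a bar and whiskers. Prf1, Klrb1c, Eomes, Ccl5, Cx3cr1 and Bcl2 are higher in all IL-33+ hearts, Cd27 and Emb are higher in all IL-33- hearts, and Gzma, Thy1, Itga1 and Cxcr6 overlap.

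Of 12 genes of tissue residency and ILC1 tested from a list of 16, 8 had a lower level in IL-33+ hearts. Of these, 4 had an unadjusted p of 0.05 or less (Itga1, Cxcr6, Rora and Ikzf2), and no list member was higher at that p. The list's median log2 fold change was -0.46. Over all 9565 genes tested, 4673 had a lower level. Itga1 (CD49a), a collagen-binding integrin, stood at 27.5, 73.1 and 38.3 CPM in IL-33+ hearts and 70.1, 173 and 92 CPM in IL-33- hearts (-1.11 ± 0.32, limma-voom adjusted p = 0.042), and heart 2 was above heart 4. Cxcr6, which reads Cxcl16 in tissue, was at 22.9, 76.4 and 14.2 CPM in IL-33+ hearts and 135, 57.4 and 41.1 CPM in IL-33- hearts (-0.95 ± 0.41, limma-voom adjusted p = 0.036), with heart 2 above hearts 5 and 6. In heart 5 these values rest on 18 UMIs of Itga1 and 7 UMIs of Cxcr6.

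Rora, a nuclear receptor of innate lymphoid cells, was at 151, 143 and 139.5 CPM in IL-33+ hearts and 258, 435 and 176 CPM in IL-33- hearts (-0.87 ± 0.23, limma adjusted p = 0.29), without overlap. Ikzf2 (Helios) was at 103, 48.6 and 80.2 CPM in IL-33+ hearts and 177, 256 and 113 CPM in IL-33- hearts (-1.12 ± 0.27), also without overlap. The activation and retention antigen Cd69 had 0.06 ± 0.23. After thinning, 2 UMIs or more of the list were found in 19.3, 24.5 and 18.7% of NK cells in IL-33+ hearts and 36.2, 39.4 and 18.4% in IL-33- hearts (exact permutation p = 0.4), hearts 4 and 5 being high and heart 6 at the level of the IL-33+ hearts. Before thinning the groups did not overlap (35.7, 35.8 and 30.5% in IL-33+ hearts and 52.4, 66.7 and 37.6% in IL-33- hearts, exact permutation p = 0.1), beside the deeper cells of IL-33- hearts.

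**Figure D4:**
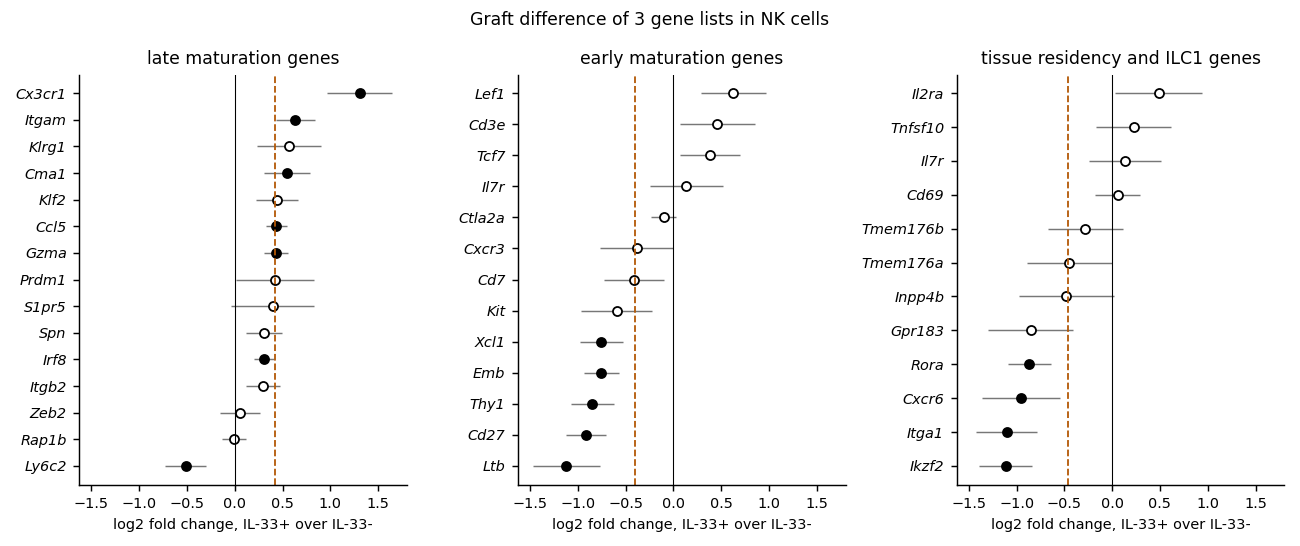
Points give the limma log2 fold change (IL-33+ over IL-33-) in NK cells with its standard error for members of 3 gene lists (1 tested early member is not shown), filled where the unadjusted p is 0.05 or less, with a dashed line at the median of all tested members and a solid line at 0. The medians are 0.42 for late maturation, -0.40 for early maturation and -0.46 for tissue residency and ILC1 genes, and no single gene passed limma's adjusted p of 0.05.

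Cells with a UMI of Itga1 or Cxcr6 were then described on their own, a split chosen after these values were seen and not tested. They were 14 of 140, 10 of 53 and 44 of 475 NK cells in IL-33+ hearts and 27 of 105, 13 of 33 and 23 of 125 in IL-33- hearts, that is 10, 18.9 and 9.26% in IL-33+ hearts and 25.7, 39.4 and 18.4% in IL-33- hearts. Heart 2 lay just above heart 6. Thinned, the shares were 5.00, 15.1 and 5.89% in IL-33+ hearts and 18.1, 27.3 and 12.8% in IL-33- hearts. These 131 cells had a median of 3057 UMIs, the other 800 a median of 2663 UMIs.

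In all 6 hearts the cells with either UMI held less Eomes, averaging 554 ± 282 CPM with either UMI and 1147 ± 193 CPM without (SD over 6 hearts). Klra8 averaged 266 ± 166 CPM with either UMI and 610.2 ± 74.6 CPM without and Itgam 113 ± 72 CPM with either UMI and 233 ± 74.1 CPM without, each lower in 6 of 6 hearts. Klra4 was lower in 5 of 6 hearts (162 ± 154 CPM with either UMI and 455 ± 126 CPM without). Tbx21 (T-bet), the other T-box factor, was higher in 3 hearts and lower in 3 (162 ± 80.5 CPM with either UMI and 160.2 ± 25 CPM without).

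In all 6 hearts the same cells held more Thy1 (344 ± 111 CPM with either UMI and 163 ± 56.3 CPM without), Rora (392 ± 166 CPM with either UMI and 162 ± 66.5 CPM without) and Ikzf2 (254 ± 147 CPM with either UMI and 91.2 ± 42.4 CPM without). The cytokine receptor Il21r (290.2 ± 78.9 CPM with either UMI and 145 ± 24.1 CPM without), Ltb (92.5 ± 51.2 CPM with either UMI and 26 ± 18.6 CPM without) and Xcl1 (566 ± 309.5 CPM with either UMI and 282 ± 106 CPM without) were also higher in 6 of 6 hearts. Cd3e was at 48.7 ± 55.4 CPM with either UMI and 12.6 ± 7.99 CPM without, higher in 4 of 6. Cd27 averaged 197 ± 108 CPM with either UMI and 123 ± 35.7 CPM without, also higher in 4 of 6 hearts. Emb, of the early list, was nearly level (330 ± 173 CPM with either UMI and 314 ± 101 CPM without, higher in 4 of 6). Ccl5, of the late list, was higher in 5 of 6 (3806 ± 978 CPM with either UMI and 3588 ± 962 CPM without). Klrb1c (150 ± 110 CPM with either UMI and 210 ± 57.5 CPM without), Prf1 and Gzma were lower in 5 of 6. Gpr183 was higher in 6 of 6 and Ccr2 in 4 of 6.

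When cells with either UMI were left out, the graft difference of Prf1 was 0.58 on the log2 scale, that of Cd27 -0.68, of Thy1 -0.67 and of Klrb1c 0.63, each in its former direction. Of 76 named genes with an unadjusted p of 0.05 or less and a value in the remaining cells, 13 had a fold change smaller by over 1.5 times and none moved as far the other way or changed sign. These were Klre1 (0.25), Eomes (0.30), Rgs1 (-0.15), Gm36723 (-0.53), Klra5 (-0.55), Gzmc (-0.36), Klra4 (0.03), Ltb (-0.58), Ikzf2 (-0.61), Il21r (-0.20), Tgfb1 (0.14), Gapdh (-0.31) and Birc3 (0.36). Klra8, at an unadjusted p above 0.05 before, was at 0.02. The residency list, then without Itga1 and Cxcr6 themselves, had a median of 0.22. limma-voom then called 9 genes, 8 of them among the former 22.

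**Figure D5:**
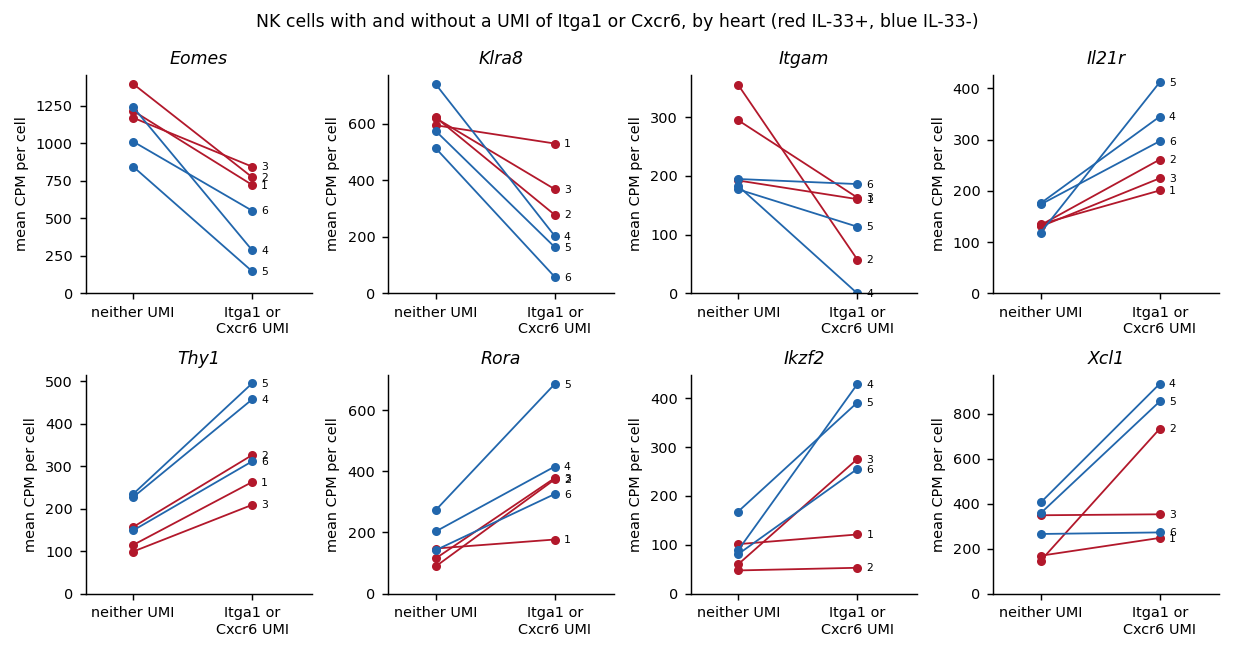
Lines join the mean CPM (linear axis from 0) of NK cells without and with a UMI of Itga1 or Cxcr6 in the same heart (numbered; IL-33+ red, IL-33- blue), for 8 genes. In the 6 hearts the lines fall for Eomes, Klra8 and Itgam and rise for Il21r, Thy1, Rora, Ikzf2 and Xcl1, by little in some hearts (Itgam in heart 6, Xcl1 in hearts 3 and 6).

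Of 19 lineage transcription factors tested, Eomes, Irf8 and Stat4 were higher at an unadjusted p of 0.05 or less and none lower, with a list median of 0.07. Eomes, which with T-bet maintains the NK fate, was at 1167, 1278 and 1140.0 CPM in IL-33+ hearts and 996, 569.7 and 927 CPM in IL-33- hearts, without overlap (0.56 ± 0.15, limma adjusted p = 0.29, limma-voom adjusted p = 0.29). Heart 5 was lowest. Stat4, which carries the IL-12 signal, had 0.42 ± 0.17. Id2, an inhibitor of E proteins needed by all innate lymphoid cells, was at 3944, 5026 and 4188 CPM in IL-33+ hearts and 5337, 5154 and 4365 CPM in IL-33- hearts (-0.18 ± 0.09, limma-voom adjusted p = 0.036), where heart 2 exceeded heart 6.

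Of 19 cytokine receptors tested, 3 were higher at an unadjusted p of 0.05 or less, the IL-18 receptor chain Il18rap (0.55 ± 0.18), the IL-12 receptor chain Il12rb2 (0.41 ± 0.19) and the interferon-gamma receptor Ifngr1 (0.21 ± 0.10), and Il21r was lower (-0.54 ± 0.19). Il18rap stood at 321, 289 and 318 CPM in IL-33+ hearts and 199, 170.2 and 266 CPM in IL-33- hearts, and Il21r at 142, 158 and 139 CPM in IL-33+ hearts and 219, 234 and 196 CPM in IL-33- hearts, neither with overlap. Without cells holding a UMI of Itga1 or Cxcr6 the fold change of Il21r was -0.20. Il2rb, the shared receptor chain for IL-2 and IL-15, overlapped at 2586, 2653 and 2788 CPM in IL-33+ hearts and 2756, 2692 and 2884 CPM in IL-33- hearts. Il1rl1 had too few UMIs to be tested.

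Of 15 secreted factors tested, Ccl5, Tgfb1 (0.23 ± 0.11) and the IL-6 family cytokine Osm (1.26 ± 0.43) were higher and Xcl1 and Ltb lower at an unadjusted p of 0.05 or less. Interferon-gamma (Ifng), the main NK cytokine, had a UMI in 9.29, 24.5 and 18.5% of NK cells in IL-33+ hearts and 18.1, 24.2 and 16.8% in IL-33- hearts after thinning (exact permutation p = 0.9), low in heart 1, against 1.75% of B cells. Areg had one in 10 of 931 thinned cells (1.07%, against 0.699% of B cells), which is near background. Ccl4, a chemokine of activated NK cells, ranged from 334 CPM in heart 1 to 1314 CPM in heart 3 (0.37 ± 0.29). The vascular growth factor Vegfa was higher in NK cells than in any other annotated type (869 CPM, monocyte-derived dendritic cells, Mo-DCs, next at 694 CPM) and did not separate the grafts (711, 852 and 911 CPM in IL-33+ hearts and 1008, 741 and 812 CPM in IL-33- hearts).

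Of 20 trafficking receptors tested, 4 were higher, Cx3cr1, Cxcr4 and Itgam among them, and Cxcr6, Ccr2 and Itga1 were lower at an unadjusted p of 0.05 or less. Cxcr4, the receptor for the bone marrow chemokine Cxcl12, was at 788, 928 and 1119 CPM in IL-33+ hearts and 759, 676 and 703 CPM in IL-33- hearts, without overlap (0.39 ± 0.13, limma-voom adjusted p = 0.053). Ccr2, which reads monocyte-attracting chemokines, was at 67.6, 146 and 86.6 CPM in IL-33+ hearts and 191, 192 and 167 CPM in IL-33- hearts, without overlap (-0.87 ± 0.24, limma-voom adjusted p = 0.036). The selectin ligand Selplg (0.23) and the integrin Itgb1 (0.27) were the others of high UMI level.

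Of 15 survival genes tested, Bcl2, Bcl2l11, Pim1 and Birc3 were higher at an unadjusted p of 0.05 or less and none lower, with a median of 0.15 by limma and -0.08 by limma-voom. The death antagonist Bcl2 was at 430.4, 371 and 451 CPM in IL-33+ hearts and 269, 182 and 273 CPM in IL-33- hearts, without overlap (0.78 ± 0.17, limma adjusted p = 0.21, limma-voom adjusted p = 0.036). Bcl2l11 (BIM), which opposes Bcl2, was at 1024, 1130.2 and 1031 CPM in IL-33+ hearts and 949, 735 and 947 CPM in IL-33- hearts (0.28 ± 0.12). The kinase Pim1 had 0.30 ± 0.13 and the NF-kB target Birc3 0.61 ± 0.21. Mcl1, another antagonist of cell death, had 0.06 ± 0.14. Morrbid, a long non-coding RNA known to restrain Bcl2l11, had 1.05 ± 0.38 from at most 43.7 CPM.

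Immediate early genes, which also respond to tissue dissociation, had 2 higher (Dusp2 and Nfkbia) and 2 lower (Jun and Rgs1) of 20 at an unadjusted p of 0.05 or less. The phosphatase Dusp2 was at 1693, 1791 and 1978 CPM in IL-33+ hearts and 1487, 1143 and 1411 CPM in IL-33- hearts, without overlap (0.44 ± 0.11, limma-voom adjusted p = 0.026). Rgs1, a brake on chemokine receptor signals and a residency-associated gene, was at 1412, 1447 and 1331 CPM in IL-33+ hearts and 2042, 2186 and 1536 CPM in IL-33- hearts, also without overlap (-0.44 ± 0.11, limma-voom adjusted p = 0.036). Nfkbia had 0.34 ± 0.15 and Jun -0.39 ± 0.19. Junb, the member of the highest UMI level, had -0.13 ± 0.10 and Jund 0.04 ± 0.13.

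Interferon, cycling and metabolic genes each had 2 members or fewer at an unadjusted p of 0.05 or less. Of 24 interferon-stimulated genes tested, 1 was lower (Bst2, -0.66 ± 0.31) and none higher at an unadjusted p of 0.05 or less, and Ifi47 (-0.21), Irf1 (-0.11) and Psmb8 (0.13) were among those of the highest UMI levels. Of 13 cell cycle genes tested from a list of 20, the replication helicase subunit Mcm6 was higher (0.50 ± 0.18) and the centromere histone Cenpa lower (-0.55 ± 0.25), and Pcna (-0.08), Tubb5 (0.36) and Stmn1 (0.43) overlapped. Thinned NK cells with 2 UMIs or more of that list made up 50.8 ± 3.28 against 51.4 ± 2.96% (exact permutation p = 0.8), beside 39.2% of B cells and 41.6% of naive T cells, so this count does not show which cells cycle. Of 20 glycolysis and nutrient uptake genes, Gpi1 (-0.54 ± 0.22) and Gapdh (-0.57 ± 0.24) were lower and none higher, with Slc3a2 (-0.05), Ldha (-0.02), Hif1a (-0.36) and Pfkp (-0.21) the others of high UMI level.

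The remaining genes that limma-voom called belong to no list. Adgre5 (CD97), an adhesion receptor, was at 452, 339 and 504 CPM in IL-33+ hearts and 255, 268 and 277 CPM in IL-33- hearts, without overlap (0.66 ± 0.16, limma-voom adjusted p = 0.025). The MHC class I heavy chain H2-K1 was at 4835, 5703 and 4893 CPM in IL-33+ hearts and 5961, 6165 and 5947 CPM in IL-33- hearts, also without overlap (-0.23 ± 0.08, limma-voom adjusted p = 6.0e-04). It shares sequence with other class I genes, so its count is uncertain. The non-coding RNA AW112010 had 0.27 ± 0.10 (limma-voom adjusted p = 0.01), and Tiprl, a regulator of phosphatases, had -0.59 ± 0.21 (limma-voom adjusted p = 0.025).

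The long non-coding RNA Gm26917 was at 408, 378 and 479.5 CPM in IL-33+ hearts and 545, 874 and 982 CPM in IL-33- hearts (-0.87 ± 0.17, limma adjusted p = 0.12, limma-voom adjusted p = 0.036), lowest in the IL-33+ hearts. Gm33782, another non-coding RNA, had 8, 2 and 18 UMIs in IL-33+ and 0 in each IL-33- heart. Against a floor of 3 UMIs over the IL-33- group its level was at least 4.12-fold higher in the IL-33+ group. Cables1, a cell cycle adaptor, had -1.16 ± 0.32 (limma-voom adjusted p = 0.041) and the keratin Krt83 -1.52 ± 0.45 (limma-voom adjusted p = 0.046).

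The largest differences among genes with a mean of at least 20 CPM, an unadjusted p of 0.05 or less and no overlap were of genes with few UMIs. Hilpda, a lipid droplet protein induced by hypoxia, was at 20.3, 26.1 and 44.9 CPM in IL-33+ hearts and 113, 189 and 69.5 CPM in IL-33- hearts (-1.67 ± 0.33, limma adjusted p = 0.12). The other lower genes were Gm36723 (-1.57), Klra5 (-1.46), Ccl9 (-1.36), Aggf1 (-1.26), Trf (-1.24), 4921524J17Rik (-1.24), Tmem135 (-1.21), Lair1 (-1.17), Cables1 (-1.16), Ifi27 (-1.15) and Pja1 (-1.12) on the log2 scale. Trf (transferrin) stood at 45.4, 61.1 and 64.4 CPM in IL-33+ hearts and 169, 224 and 81.6 CPM in IL-33- hearts. Hearts 4 and 5, the highest for Hilpda and Trf, also held the most neutrophil marker RNA, and its part in these values was not tested. Among NK cells without a UMI of Cd3d, Cd3e, Cd3g or Trac, 5 of 77 named genes with an unadjusted p of 0.05 or less and a value had a fold change that moved by over 1.5 times, Gm26917 (-0.57), Cmklr1 (1.78), Klra5 (-0.78), Pja1 (-0.06) and Jun (-0.25). In the same cells Ncr1 was at -0.45. The higher genes were Bcl3 (1.60), Cx3cr1 (1.31), Osm (1.26), Ap1s2 (1.23), Otud1 (1.23), Serpine2 (1.21), Fabp4 (1.14), Casp4 (1.11), Klf10 (1.10), Cmklr1 (1.07), Morrbid (1.05) and Rabif (1.03). Leaving out 1 heart moved several of the higher and the lower genes by over 1.5 times. Without heart 5 the fold change was 0.73 for Bcl3, 0.70 for Osm, 0.72 for Ap1s2, 0.61 for Otud1, 0.69 for Klf10, 0.56 for Rabif, -0.90 for Klra5 and -0.81 for Tmem135. Without heart 2 it was -0.79 for Ccl9, -0.78 for Aggf1, -0.69 for Lair1 and -0.67 for Pja1. Fabp4, which is also on the endothelial list, was at 0.66 without heart 1. Bcl3, an NF-kB partner, had no UMI in heart 5. Klf10, a factor induced by TGF-beta, was at 183, 185 and 169 CPM in IL-33+ hearts and 81.1, 39.6 and 141 CPM in IL-33- hearts (1.10 ± 0.28), and the chemerin receptor Cmklr1 had 1.07 ± 0.35. With both hearts 2 and 5 left out, 27 of the 78 moved by over 1.5 times, 26 to a smaller value, and none changed sign. Of the largest differences these were Bcl3 (0.45), Osm (0.56), Ap1s2 (0.58), Otud1 (0.53), Casp4 (0.65), Klf10 (0.66), Rabif (0.33), Klra5 (-0.63), Ccl9 (-0.37), Aggf1 (-0.54), Tmem135 (-0.56), Lair1 (-0.70) and Pja1 (-0.57). The fold change of Hilpda was then -1.28, of Cx3cr1 0.94, of Prf1 0.62, of Cd27 -0.79, of Eomes 0.26, of Ccl5 0.22, of Rora -0.53, of Ikzf2 -0.58 and of Cxcr6 -1.61.

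Cells annotated NKT cells, a name for T cells with NK receptors, were set beside NK cells. So were Trm-like cells, annotated for their likeness to tissue-resident memory T cells. The annotated NKT cells held 77.3 CPM of Cd3e and 96.3 CPM of Trac. Effector memory and effector T cells held 573 and 538 CPM at a similar median depth (5693 against 5741 UMIs). Which of the annotated NKT cells are T cells was not tested. In a test of the difference between NK and NKT cells in the graft effect, limma called 0 of 8929 genes (365 at an unadjusted p of 0.05 or less, 4.09%). Between NK and Trm-like cells it called 0 of 7706 genes (381 at an unadjusted p of 0.05 or less, 4.94%), or 1 at a pseudocount of 50 CPM, Hilpda (difference -1.65, limma adjusted p = 0.029). No gene's graft difference can thus be called particular to NK cells. In NKT cells the log2 fold change was 0.51 for Prf1, 0.60 for Gzma, 0.53 for Eomes, 1.10 for Cx3cr1, -1.52 for Cxcr6 and -0.37 for Cd27. Not all named genes went the same way in NKT cells. There Ccl5 was at -0.02, Xcl1 at -0.003 and Ikzf2 at -0.01, while Ltb (0.53) and Serpinb9 (0.39) had the opposite sign to NK cells. Both types came from the same hearts, and limma called 0 of 9296 genes in NKT cells alone (454 at an unadjusted p of 0.05 or less, 4.88%). Among the named genes, Hilpda was at -0.17 in NKT cells (difference -1.51 ± 0.43) and Rora at -0.06 (difference -0.81 ± 0.30), with a limma adjusted p of 0.93 for the difference of each. In Trm-like cells the log2 fold change was 1.94 for Cx3cr1, -0.41 for Cd27 and -0.57 for Cxcr6, as in NK cells by sign. It was -0.20 for Prf1, 0.00096 for Eomes, 0.26 for Rora and 0.32 for Itga1.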

How the data were processed

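Cells were captured from 6 grafts at POD 14 by 10x 3′ chemistry with hashtags, and per the labels were processed by the authors with Cell Ranger (mm10) and Partek (10.0.23.0425), with filters on UMIs, genes and mitochondrial share. The deposited values are log2(CPM + 1) per cell, with the authors' annotation. CPM were turned back into UMIs (99.9% of low values lay within 0.05 of a whole UMI), and 22 symbols hold a mean over identifiers. The 4441 cell barcodes were all distinct. NK cells held 1505 to 5690 UMIs each, and hearts held 107493 to 1270906 UMIs over NK cells. The hearts shared 1 droplet library, so droplet capture did not differ between groups, and whether hashtags were assigned to the right heart could not be checked here.

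Mean CPM per heart was compared as log2(CPM + 10) by limma 3.58.1 (R 4.3.3, trend, Benjamini-Hochberg adjustment) over genes that had 10 UMIs or more and were seen in 3 hearts or more, with 0.05 as the threshold. limma-voom on recovered UMIs was an alternative. For single measures a two-sided exact permutation test over hearts was used (scipy 1.17.1). Scrublet (scanpy 1.11.5) marked 3 cells as doublets, which were kept, and an alternative left out the top 6% of all cells by score. Genes were named if they were NK markers, were called by either test, were among the 12 largest differences in each direction (mean of at least 20 CPM, unadjusted p of 0.05 or less, no overlap), or were in a list and among its 4 highest or at an unadjusted p of 0.05 or less. The members and lists were chosen with earlier results of these data known. Each heart is 1 graft in 1 recipient. Of the listed genes, 2 are counted in their lists but not otherwise reported here.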

Additional observations from a re-analysis of the deposited data

How the results depend on the processing

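Of the 110 named genes, 18 changed the sign of their fold change under some alternative. limma called 0 genes under 10 of the alternatives that kept every heart (366 to 583 at an unadjusted p of 0.05 or less), 58 with hearts weighted by NK cells (759) and 22 by limma-voom (664). Leaving out 1 heart gave 0 to 9 genes by limma and 0 to 45 by limma-voom. By alternatives chosen after seeing the data, limma-voom called 9 genes without cells holding a UMI of Itga1 or Cxcr6, 7 without those holding one of Cd3d, Cd3e, Cd3g or Trac, and 47 without hearts 2 and 5. The difference between NK and Trm-like cells gave 1 gene, Hilpda, at a pseudocount of 50 CPM. With 1 heart left out, the difference between groups ran over -0.22 to 0.0655 points for the mitochondrial share, -2.14 to 1.14 for NK cells with 2 UMIs or more of the cell cycle list (2.95 with 3 UMIs or more), -0.89 to 2.23 for Klrg1 and -5.81 to 1.81 for Ifng. The log2 fold changes that crossed 0 ran over -0.22 to 0.15 for Ncr1, -0.17 to 0.0583 for Srgn, -0.00988 to 0.40 for Klrb1b, -0.28 to 0.0718 for Ctla2a, -0.12 to 0.0572 for Rap1b, -0.24 to 0.35 for Cd69, -0.0497 to 0.92 for Ccl4, -0.14 to 0.0789 for Vegfa, -0.25 to 0.0185 for Junb, -0.11 to 0.17 for Jund, -0.40 to 0.0971 for Irf1, -0.45 to 0.0680 for Ifi47, -0.24 to 0.0473 for Pcna, -0.11 to 0.10 for Ldha and -0.0341 to 0.11 for Mcl1. Without cells holding a UMI of Itga1 or Cxcr6, the fold change took the other sign for Ncr1 (0.0577), Il2rg (0.0228), Ldha (0.0846) and Slc3a2 (0.00190). With UMIs summed over cells, the fold change took the other sign for Rap1b (0.00927) and Jund (-0.00351). By limma-voom, the fold change took the other sign for Rap1b (0.0614) and Irf1 (0.0839). Without hearts 2 and 5, the fold change took the other sign for Rap1b (0.11), Irf1 (0.0952), Ifi47 (0.0700), Pfkp (0.14) and Ldha (0.0193). List medians changed sign under at least 1 alternative, of which 1 is given each, for the cytotoxic list (-0.034 without heart 6), the transcription factors (-0.018 without heart 6), the cytokine receptors (-0.043 by limma-voom), the secreted factors (0.13 by limma-voom), the immediate early genes (-0.049 without hearts 2 and 5), the survival genes (-0.08 by limma-voom) and the residency list (0.22 without cells holding a UMI of Itga1 or Cxcr6). The cause was not tested. No paired analysis was possible because the labels number the hearts 1 to 3 in one group and 4 to 6 in the other, so no replicate block can be formed. Hearts 2 and 5, with 53 and 33 NK cells, limit the precision of every mean, and genes under about 20 CPM rest on few UMIs in them.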
